A study of Homo sapiens with 48 samples.

Results

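The negative control siRNAs NC2 and NC1 were compared with each other in Huh7 cells, a human hepatoma line. The comparison rests on the 16 arrays titled for Huh7 with NC2 or NC1, out of 48 arrays in the whole study, which also holds an siRNA against an intergenic transcript (INTG) and a second line, the monocytic leukaemia line THP1. All the cells received an siRNA with the lipid reagent Lipofectamine. NC2 is Silencer Select Negative Control #2 and NC1 is Silencer Select Negative Control #1, both from Ambion. Each was given at 50 pmol to 300000 cells per well, and RNA was collected after 2 days. The serum percentage and the medium volume were the same for every array. NC2 had 8 arrays and NC1 had 8 arrays, as 2 wells in each of 4 experiments. The 4 experiments used different culture passages of the same line, so they are repeats within 1 line and not separate donors. No untransfected or mock-transfected cells were analysed here. A difference between NC2 and NC1 therefore cannot be assigned to either of them.

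An siRNA is a short RNA duplex, 1 strand of which guides an Argonaute protein to matching transcripts, which are then cleaved. Transcripts that match only the seed, a short stretch near the guide's 5′ end, can be repressed too, in the manner of a microRNA. A negative control siRNA is designed to have no perfectly matching transcript in the cell, and serves as the baseline for the transfection itself. The guide sequences of NC2 and NC1 were not given in the sources used here, so no transcript was searched for a match to them. Huh7 cells make the plasma proteins and lipoproteins of the liver, among them albumin (ALB) and alpha-fetoprotein (AFP).

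The 11 hepatoma markers that had a probe were detected on all of the 16 arrays, with ALB at 14.78 with NC2 and 14.78 with NC1 on the log2 intensity scale. Of 10 myeloid markers with a probe, 8 were detected on none of the 16 arrays, and LYZ and CD14 on all of them. Of 7 fibroblast markers with a probe, COL1A1, COL3A1, DCN and THY1 were detected on none, while COL1A2 averaged 6.49 with NC2 and 6.44 with NC1 (adjusted p = 0.899), LUM 8.94 with NC2 and 8.63 with NC1 (adjusted p = 0.161) and PDGFRB 5.67 with NC2 and 5.26 with NC1 (adjusted p = 0.213). The mean array signal with NC2 was 1.02 times that with NC1 in experiment 1, 0.992 times in experiment 2, 0.901 times in experiment 3 and 0.739 times in experiment 4. Duplicate wells of 1 siRNA correlated at 0.985 to 0.996 over probes, and NC2 and NC1 wells of the same number in an experiment at 0.985 to 0.994. Within each experiment the NC2 arrays lay after the NC1 arrays on the slide, so that order and siRNA cannot be told apart there, while positions C, D, G and H held NC2 on one slide and NC1 on the other.

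Few probes passed the threshold between the control siRNAs, and their number depended on the processing. The differences of those that passed were mostly under 2-fold. Among the named genes past the threshold, the kinesin light chain KLC1, the cell cycle factor E2F2, the lipid kinase PIP4K2A and the cyclin-dependent kinase inhibitor CDKN1A were higher with NC2. The myosin phosphatase partner MPRIP, the histone gene H2BC12, the translation factor EIF5A2, the RNA-binding protein FXR1 and the diphthamide enzyme DPH2 were lower with NC2. Of 13878 probes tested, 66 (0.476%) passed a Benjamini-Hochberg adjusted p of 0.05 in limma, 39 (0.281%) higher and 27 (0.195%) lower with NC2. At an unadjusted p of 0.05, 1343 probes (9.68%) passed. The 66 probes named 56 genes, 0.6% of the 9341 genes with a tested probe. Of these, 35 were higher (0.375%) and 21 lower (0.225%), and 7 probes carried no gene symbol. The probes were tested on wells averaged within experiments, with experiment as a block, n = 4 experiments per siRNA.

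The median difference of NC2 minus NC1 was 0.54 over the 39 higher probes and -0.64 over the 27 lower ones on the log2 scale. Differences over 1.00 were found for MPRIP (-1.18) and for 1 higher probe without a gene symbol (1.05). A further 42 probes differed by more than 0.50 without passing, and 13 of them were detected on all 16 arrays. All of the 66 probes had the same sign in the 4 experiments, as had 22.6% of all tested probes. The 4 NC2 levels lay wholly above or below the 4 NC1 levels for 39 of the 66 probes, 19 of the higher and 20 of the lower ones, against 1.88% of all tested probes. The sign was the same in all 16 pairings of an NC2 well with an NC1 well of the same experiment for 63 of the 66 probes, 36 higher and 27 lower, against 2.95% of all tested probes. These counts describe probes that the same values selected. Without experiment 1, 2, 3 or 4, the number of probes past the threshold was 3, 12, 9 and 3 in that order. KLC1 and MPRIP passed in each of these 4 fits, 5 genes passed in 2 of them, 4 genes in 1 and the remaining 45 genes in none.

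**Figure D1:**
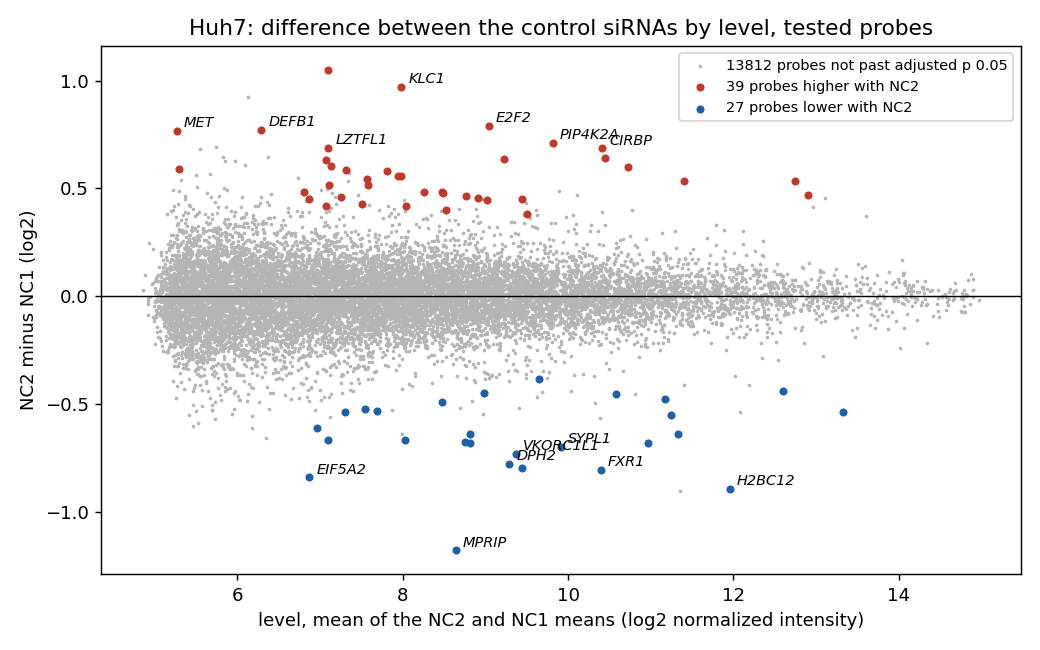
NC2 minus NC1 (log2) against the level (mean of the NC2 and NC1 means, log2 normalized intensity), 1 point per tested probe in Huh7. The 39 higher probes (red) lie between 0.38 and 1.05 and the 27 lower ones (blue) between -0.38 and -1.18, while the other probes (grey) centre on 0 and spread more at low levels.

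Among the named genes past the threshold, the largest differences in each direction were those of MPRIP and KLC1, which act at the cytoskeleton. MPRIP binds myosin phosphatase and brings it to actin stress fibres. Its level in experiments 1 to 4 was 8.40, 8.32, 7.66 and 7.82 with NC2, against 9.37, 9.36, 8.96 and 9.23 with NC1 (log2 normalized intensity). The levels did not overlap, and the difference was -1.18 ± 0.11 (SE, adjusted p = 0.00235), which puts NC2 at 0.442 times NC1. A second MPRIP probe passed at -0.61 ± 0.11 (adjusted p = 0.0359) and another was at -0.35 ± 0.08 (adjusted p = 0.0875). The 3 probes thus shared a direction and differed in size.

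KLC1 is a light chain of kinesin-1, the motor that carries cargo along microtubules towards the cell edge. Its level was 8.20, 8.37, 8.71 and 8.57 with NC2, against 7.34, 7.35, 7.75 and 7.53 with NC1. Every NC2 level was above every NC1 level, and the difference was 0.97 ± 0.07 (SE, adjusted p = 0.00036), or 1.96-fold. The other KLC1 probe, which was the brighter one, was at 0.12 ± 0.09 (adjusted p = 0.715), so the probes of this gene disagreed. Of 21 measured kinesin and dynein genes, KLC1 was the member that passed, beside 0.6% of all 9341 genes. The median over the brightest probes of the list was 0.11, beside 0.0028 over all genes. The lists were chosen with earlier results of these data known. Here and below, such a count does not test a list as a group. The kinesin-1 heavy chain KIF5C was at 0.29 ± 0.08 (adjusted p = 0.153). PPP1CB, the catalytic subunit of myosin phosphatase, was at 0.38 ± 0.10 (adjusted p = 0.153), and the non-muscle myosin heavy chain MYH10 at 0.24 ± 0.07 (adjusted p = 0.252).

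Among genes of translation, EIF5A2 and DPH2 were lower with NC2. EIF5A2, an isoform of the elongation factor that carries the modified amino acid hypusine, had levels of 6.61, 6.38, 6.68 and 6.13 with NC2, against 7.28, 7.06, 7.71 and 7.11 with NC1. The levels did not overlap, and the difference was -0.84 ± 0.10 (SE, adjusted p = 0.00531). DPH2 takes part in making diphthamide, the modified histidine of elongation factor eEF2. Its level was 8.88, 9.02, 9.27 and 8.42 with NC2, against 9.47, 9.61, 10.11 and 9.52 with NC1, a difference of -0.78 ± 0.10 (adjusted p = 0.00603). These ranges did not overlap either. Of 20 measured genes for eIF5A, hypusine, diphthamide and the elongation factors, EIF5A2 and DPH2 passed, both lower. Over all 9341 genes 0.6% passed, and the list's median was -0.040. The lists were chosen with earlier results of these data known, so this count is not a test of translation genes as a group. None of 31 measured translation initiation factors passed, with EIF1AX at -0.22 ± 0.09 (adjusted p = 0.431).

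FXR1, an mRNA-binding relative of the fragile X protein, was at 10.29, 10.07, 9.91 and 9.70 with NC2, against 10.93, 10.76, 10.77 and 10.75 with NC1. The difference was -0.81 ± 0.10 (SE, adjusted p = 0.00561) and the levels did not overlap. A second FXR1 probe, detected on all 16 arrays, was at -0.16 ± 0.08 (adjusted p = 0.549). FXR1 was the member that passed of 18 measured genes of its family and of mRNA granules, beside 0.6% of all 9341 genes. The list's median was 0.020, and the FXR1 paralog FXR2 was at 0.17 ± 0.11 (adjusted p = 0.652). YBX3, a cold shock domain protein that binds mRNA, was at 10.62, 10.61, 10.93 and 10.36 with NC2, against 11.05, 11.21, 11.81 and 11.17 with NC1. Its difference was -0.68 ± 0.08 (adjusted p = 0.00596), without overlap. CIRBP, another RNA-binding protein, which is induced by mild cold, moved the other way, at 10.18, 10.62, 11.24 and 10.96 with NC2 against 9.56, 9.86, 10.54 and 10.29 with NC1. The CIRBP ranges overlapped, while each experiment gave a difference of 0.62 to 0.76, with a mean of 0.69 ± 0.08 (adjusted p = 0.00472).

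In the cell cycle lists, 1 gene each passed among the E2F family and the G1 regulators, and none among S phase and mitotic genes. Over all 9341 genes 0.6% passed, so 0 calls in the latter lists is near that share. These counts do not set the lists apart. E2F2, a transcription factor that activates S phase genes, was at 9.32, 9.34, 9.63 and 9.45 with NC2, against 8.41, 8.60, 8.76 and 8.81 with NC1. It was higher with NC2 in every experiment without overlap, by 0.79 ± 0.11 (SE, adjusted p = 0.00986). CDKN1A encodes p21, which inhibits cyclin-dependent kinases and is a target of p53. It was at 8.26, 8.27, 8.17 and 8.21 with NC2, against 7.62, 7.53, 7.68 and 7.85 with NC1. That gave a difference of 0.56 ± 0.09 (adjusted p = 0.0296), again without overlap. E2F2 was the member that passed of 12 measured E2F and RB family genes, and CDKN1A of 11 measured G1 regulators and of 13 measured p53 targets. None of 32 measured S phase genes passed, with a median of -0.0058, and none of 30 measured G2 and mitosis genes, with a median of -0.022. The mitotic kinase TTK came closest in the second group, at 8.71 with NC2 and 9.04 with NC1 (adjusted p = 0.106). Among p53 targets SESN1 was at 0.36 ± 0.10 (adjusted p = 0.176) and the exonuclease gene AEN at -0.25 ± 0.09 (adjusted p = 0.322).

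Chromatin genes were found in both directions. H2BC12 encodes a replication-dependent histone H2B. Its brighter probe gave 11.65, 11.28, 11.93 and 11.17 with NC2, against 12.25, 12.18, 12.88 and 12.31 with NC1. The difference was -0.89 ± 0.15 (SE, adjusted p = 0.0318) without overlap, and its other probe also passed, at -0.80 ± 0.14 (adjusted p = 0.0359), with overlapping ranges. Of 22 measured replication-dependent histone genes, H2BC12 was the one that passed, 17 were below 0 and 5 above, and the median was -0.13. Over all 9341 genes, 0.6% passed and 4559 were below 0. At an unadjusted p of 0.05, 5 histone genes were lower and 0 higher, while 4.71% of all genes were lower and 5.25% higher at that level. In THP1, 6 of 16 tested histone genes of this list were below 0, with a median of 0.04. In Huh7 the list's median was -0.08, -0.20, -0.28 and -0.07 in experiments 1 to 4. The linker histone H1-2 was at 8.12, 7.51, 9.19 and 8.89 with NC2 and at 8.57, 8.09, 9.91 and 9.21 with NC1, a difference of -0.52 ± 0.11 that did not pass (adjusted p = 0.0921). H2AC18 was at -0.35 ± 0.10 (adjusted p = 0.216). Histone paralogs have near-identical coding sequences, so a probe may take up transcripts of several of them, and the members are not independent.

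**Figure D2:**
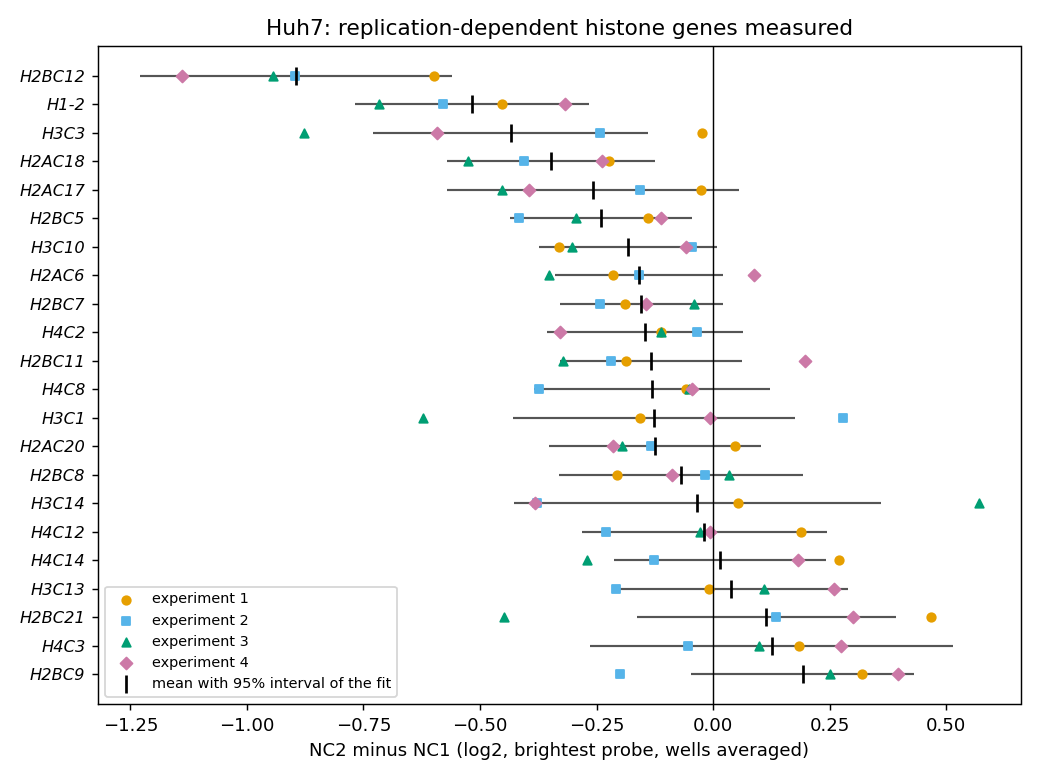
NC2 minus NC1 (log2, brightest probe, wells averaged) for the 22 measured replication-dependent histone genes, with 1 point per experiment and the mean with its 95% interval from the fit. H2BC12 lies furthest below 0 at -0.89, H1-2 follows at -0.52, and most other intervals reach across 0.

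Promoters of 3 of these genes are shown because H2BC12 passed, H2BC11 is its paralog at -0.13 ± 0.09 (adjusted p = 0.687), and H1-2 had the next lowest difference. They are RefSeq sequences of GRCh38.p14 that run from 250 bases before to 50 bases after the annotated start, written on the gene's strand. Capitals mark the octamer ATTTGCAT and the CCAAT box, each searched on both strands, so that ATTGG is a CCAAT box on the other strand; neither motif overlaps the other here.
H2BC12, chr6:27146809-27147108, minus strand: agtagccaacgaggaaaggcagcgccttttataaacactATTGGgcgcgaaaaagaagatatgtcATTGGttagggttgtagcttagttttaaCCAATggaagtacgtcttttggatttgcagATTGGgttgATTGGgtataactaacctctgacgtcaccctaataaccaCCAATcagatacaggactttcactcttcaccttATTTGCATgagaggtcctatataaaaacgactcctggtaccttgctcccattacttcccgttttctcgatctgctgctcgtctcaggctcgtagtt
H2BC11, chr6:27132746-27133045, minus strand: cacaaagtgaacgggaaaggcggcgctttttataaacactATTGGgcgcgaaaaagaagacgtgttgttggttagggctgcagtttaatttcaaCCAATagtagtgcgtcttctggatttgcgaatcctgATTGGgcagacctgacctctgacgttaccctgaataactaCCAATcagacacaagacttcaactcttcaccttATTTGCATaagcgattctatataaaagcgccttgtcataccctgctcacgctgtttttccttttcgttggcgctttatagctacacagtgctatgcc
H1-2, chr6:26056421-26056720, minus strand: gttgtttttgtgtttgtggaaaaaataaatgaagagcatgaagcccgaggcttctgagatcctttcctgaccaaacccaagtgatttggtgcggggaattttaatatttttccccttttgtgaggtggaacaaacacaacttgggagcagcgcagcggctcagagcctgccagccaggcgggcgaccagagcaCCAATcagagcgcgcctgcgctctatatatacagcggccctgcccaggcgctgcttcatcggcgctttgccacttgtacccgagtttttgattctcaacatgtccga
H2BC12 and H2BC11 share the octamer and several CCAAT boxes, whereas the H1-2 window holds 1 CCAAT box and 0 octamers. The octamer was found in 14 of 18 promoter entries of listed H2B genes (77.8%) and in 1.77% of all 35116 promoters of that length. The CCAAT box was found in 18 of those 18 (100%) and in 34.6% of all promoters. A match describes the letters and not a bound site.

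Of 10 measured replacement histone genes, which are expressed outside S phase, H3-3A was the one that passed, beside 0.6% of all 9341 genes. It was higher with NC2, at 0.47 ± 0.09 (adjusted p = 0.0435), and its other 2 probes were at 0.46 ± 0.10 (adjusted p = 0.0921) and 0.37 ± 0.09 (adjusted p = 0.112). The DNA methyltransferase DNMT3B, which sets new methylation, was at 7.72, 7.44, 6.91 and 7.50 with NC2, against 7.06, 6.83, 6.34 and 6.80 with NC1. The ranges overlapped, while the difference within each experiment stayed between 0.57 and 0.70, with a mean of 0.63 ± 0.09 (adjusted p = 0.0138). A second DNMT3B probe was at 0.53 ± 0.11 (adjusted p = 0.0614). BANF1, a small DNA-bridging protein of the nuclear envelope, was higher at 0.53 ± 0.07 (adjusted p = 0.0113).

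Signalling genes were found on both sides. PIP4K2A makes PI(4,5)P2 from PI5P. Its level was 10.34, 9.90, 10.21 and 10.24 with NC2, against 9.51, 9.34, 9.58 and 9.42 with NC1, without overlap, and the difference was 0.71 ± 0.08 (adjusted p = 0.0027), or 1.64-fold. It was the member that passed of 15 measured phosphoinositide kinases and phosphatases, beside 0.6% of all 9341 genes. The PIP4K2A call rests on 1 probe. Another PIP4K2A probe was detected on 2 of the 8 NC2 arrays and 1 of the 8 NC1 arrays. With 5 of the 24 Huh7 arrays it was detected on too few to be tested. PRKAA1, the catalytic alpha-1 subunit of the energy sensor AMPK, was at 8.57, 8.58, 8.48 and 8.36 with NC2, against 9.14, 8.96, 9.25 and 9.19 with NC1. These levels did not overlap, at -0.64 ± 0.09 (adjusted p = 0.00986), and the gene's other probe passed as well, at -0.49 ± 0.09 (adjusted p = 0.0359). PTPN14, a tyrosine phosphatase that acts with the Hippo pathway, was higher at 0.58 ± 0.09 (adjusted p = 0.0192), but its other, dimmer probe was at 0.10 ± 0.10 (adjusted p = 0.823).

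MET, the receptor of hepatocyte growth factor, stood near the detection limit. Its probe was detected on 4 of the 8 NC2 arrays and on 1 of the 8 NC1 arrays. The level was 5.45, 5.17, 6.24 and 5.73 with NC2, against 5.01, 4.74, 5.07 and 4.70 with NC1, without overlap, and the difference of 0.77 ± 0.14 (adjusted p = 0.0435) varied more than for brighter genes, from 0.43 in experiment 2 to 1.17 in experiment 3. MET was the member that passed of 21 measured receptor tyrosine kinases and ligands, beside 0.6% of all 9341 genes. EGFR, the epidermal growth factor receptor, was at 0.14 ± 0.07 (adjusted p = 0.598).

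Stress and defence genes gave a mixed picture. HSPB1, a small heat shock protein, was at 10.52, 10.74, 11.59 and 11.21 with NC2, against 10.99, 11.09, 12.33 and 12.21 with NC1. Its ranges overlapped, with higher levels in experiments 3 and 4 than in 1 and 2, and NC2 was lower in each experiment, by -0.64 ± 0.11 (adjusted p = 0.0318) on average. HSPB1 was the member that passed of 16 measured heat shock genes, beside 0.6% of all 9341 genes, and the list's median was 0.034. MT1X, a metallothionein that binds zinc and copper, was lower at -0.55 ± 0.10 (adjusted p = 0.0359), again with overlapping ranges. It was the member that passed of 24 measured metallothioneins and zinc transporters, beside 0.6% of all 9341 genes. MT1G was at -0.31 ± 0.19 (adjusted p = 0.652), and near-identical metallothionein transcripts may share probes.

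MICB, a stress-induced ligand of the NKG2D receptor of natural killer cells, was at 7.54, 7.57, 8.06 and 7.64 with NC2, against 8.27, 8.15, 8.51 and 8.53 with NC1. The levels did not overlap, at -0.67 ± 0.09 (adjusted p = 0.0113). DEFB1, an antimicrobial beta-defensin of epithelia, was at 7.36, 7.26, 6.13 and 5.95 with NC2, against 6.65, 7.04, 5.01 and 4.91 with NC1. The ranges overlapped, the probe was detected on 8 NC2 arrays and 4 NC1 arrays, and the difference of 0.77 ± 0.14 (adjusted p = 0.0419) ran from 0.22 in experiment 2 to 1.12 in experiment 3. By brightest probe, all of the 6 measured defensins and antimicrobial peptides were above 0, with a median of 0.16. DEFB1 was the one that passed. Of all 9341 genes, 0.6% passed and 4782 were above 0. In THP1, 3 of the 4 tested members were below 0, with a median of -0.13. In Huh7 a second, dimmer LYZ probe was at -0.06. The iron hormone hepcidin (HAMP) was at 0.43 ± 0.09 (adjusted p = 0.076). KLF2, a transcription factor known for quiescence in endothelial cells, was at 9.30, 9.63, 9.71 and 9.56 with NC2, against 8.76, 8.86, 9.07 and 8.96 with NC1, without overlap and with a difference of 0.64 ± 0.10 (adjusted p = 0.0192).

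Among genes of membranes and organelles, VKORC1L1, which like VKORC1 reduces vitamin K epoxide, was at 9.10, 9.11, 9.03 and 8.77 with NC2, against 9.79, 9.69, 9.80 and 9.65 with NC1. SYPL1, a vesicle membrane protein of the synaptophysin family, was at 9.71, 9.69, 9.38 and 9.47 with NC2, against 10.37, 10.26, 10.07 and 10.35 with NC1. Neither pair of ranges overlapped. VKORC1L1 was lower at -0.73 ± 0.08 (adjusted p = 0.0027) and SYPL1 at -0.70 ± 0.07 (adjusted p = 0.0027), and 2 other SYPL1 probes were at -0.38 ± 0.11 and -0.28 ± 0.10 (adjusted p = 0.186 and 0.341). PDCD6, a calcium-binding protein of vesicle transport, was higher at 0.64 ± 0.07 (adjusted p = 0.0027), and so was TOMM20, a receptor of the mitochondrial import complex, at 0.60 ± 0.08 (adjusted p = 0.00986). MCFD2, which helps secretory cargo such as clotting factors out of the endoplasmic reticulum, was higher at 0.58 ± 0.09 (adjusted p = 0.0192). CLDN1, a tight junction protein of hepatocytes, was higher at 0.54 ± 0.08 (adjusted p = 0.0192).

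ACOX2 and MLX, which act in lipid and sugar metabolism, were lower with NC2. ACOX2, a peroxisomal oxidase of bile acid synthesis, was at 8.67, 8.80, 8.36 and 8.04 with NC2, against 9.23, 9.40, 8.98 and 8.98 with NC1, without overlap and with a difference of -0.68 ± 0.10 (adjusted p = 0.0142). MLX, the partner of the glucose-sensing factors MondoA and ChREBP, was at 6.45, 6.94, 7.02 and 6.62 with NC2, against 7.06, 7.48, 7.74 and 7.42 with NC1, also without overlap, with a difference of -0.67 ± 0.08 (adjusted p = 0.00472). Of the remaining genes in the 15 highest and 15 lowest, LZTFL1, a regulator of traffic into cilia, was higher at 0.69 ± 0.09 (adjusted p = 0.00974). The ubiquitin ligase subunit WSB1 was higher at 0.60 ± 0.11 (adjusted p = 0.0369), and the ubiquitin ligase subunit FBXO33 lower at -0.54 ± 0.08 (adjusted p = 0.0192).

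**Figure D3:**
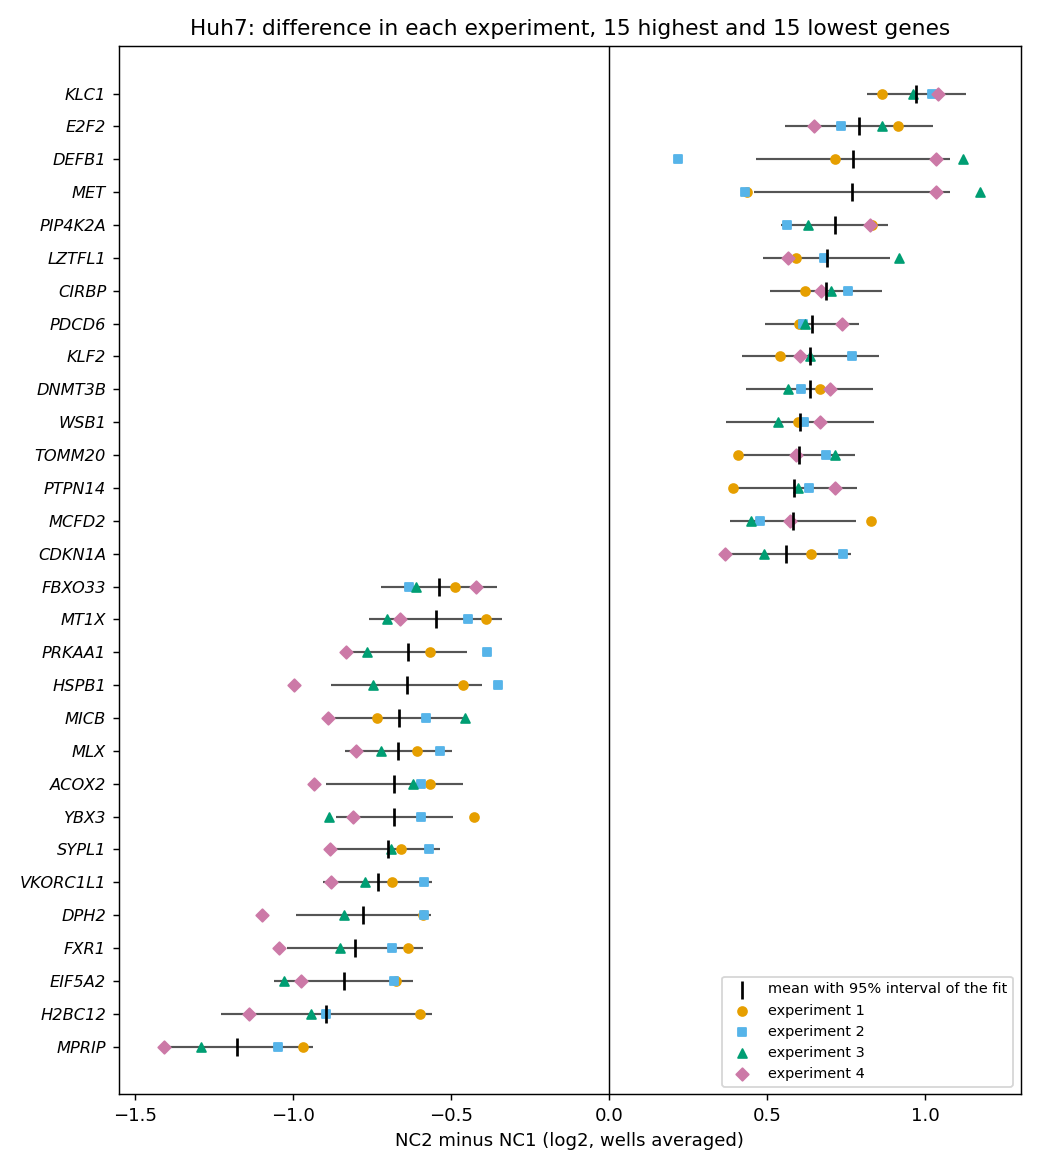
NC2 minus NC1 (log2, wells averaged) in each experiment for the 15 highest and 15 lowest genes past the threshold, 1 probe per gene, with the mean and its 95% interval from the fit. Every point of the higher genes lies right of 0 and every point of the lower genes left of 0, and DEFB1, MET and HSPB1 spread most between experiments.

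Of 40 gene lists, 14 held a member that passed and 26 held none, and in each of the 14 no more than 2 members passed. Over all 9341 measured genes 0.6% passed, so 0 calls in a list of this size is near the overall share. Genes that double-stranded RNA can induce were among those without a call. NC2 and NC1 are both siRNAs, so a response that they share would not show in this contrast. None of 17 measured interferon-stimulated and RNA-sensing genes passed. ISG20, an antiviral exonuclease, was at 0.27 ± 0.09 (adjusted p = 0.287) and the ubiquitin-like ISG15 at -0.20 ± 0.10 (adjusted p = 0.561). None of 11 measured NF-kappaB targets and cytokines passed, with IER3 at 0.30 ± 0.11 (adjusted p = 0.354). None of 19 measured genes of the RNA interference machinery passed, and their median was -0.027. In that group PRKRA, a partner of Dicer, was at -0.19 ± 0.07 (adjusted p = 0.329) and the Argonaute-binding scaffold TNRC6B at -0.25 ± 0.11 (adjusted p = 0.48).

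The lists of liver genes were also without a call, which at 0.6% of all 9341 genes is near the overall share. None of 22 measured hepatoma identity genes passed, with a median of 0.012 and a range from -0.26 for APOH to 0.10 for APOA2. AFP averaged 14.09 with NC2 and 14.08 with NC1, and APOA1 12.57 with NC2 and 12.66 with NC1. None of 16 measured acute phase and complement genes, 13 lipoprotein genes or 26 genes of cholesterol and fatty acid synthesis passed. None of 12 housekeeping genes passed, and their values ran from -0.21 for HPRT1 to 0.21 for TBP. The 7 measured neighbours of the C5 and TRAF1 interval, the region that INTG targets, held 0 calls, with C5 at 0.17 ± 0.08 (adjusted p = 0.525). In the stress lists without a call, the endoplasmic reticulum chaperone DNAJB9 was at -0.37 ± 0.08 (adjusted p = 0.0824) and the mitochondrial folate enzyme MTHFD2 at -0.49 ± 0.13 (adjusted p = 0.15). The antioxidant enzyme PRDX1 was at -0.24 ± 0.07 (adjusted p = 0.207). The matrix protease inhibitor TIMP3 was at -0.48 ± 0.10 (adjusted p = 0.0666) and the immediate early factor FOSB at -0.43 ± 0.09 (adjusted p = 0.0765).

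Of the 56 genes, 18 had more than 1 tested probe. The 24 other probes of these genes all had the sign of the probe that passed, 18 of them at an unadjusted p under 0.05 and 3 at the adjusted threshold. The 3 belong to MPRIP, H2BC12 and PRKAA1. Beside KLC1, FXR1 and PTPN14, WDR20 had probes of clearly different size, at 0.56 ± 0.08 and 0.08 ± 0.10. The other 38 genes rest on 1 tested probe each.

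The INTG arrays of the same experiments gave a further level for each probe, and entered the fit for the spread alone. For MPRIP the mean was 9.30 with INTG, 8.05 with NC2 and 9.23 with NC1, and for FXR1 10.96 with INTG, 9.99 with NC2 and 10.80 with NC1. For these genes INTG lay nearer NC1 and above both controls. For PIP4K2A the mean was 10.36 with INTG, 10.17 with NC2 and 9.46 with NC1, and for PDCD6 10.86 with INTG, 10.77 with NC2 and 10.13 with NC1. Here INTG lay nearer NC2, again above both controls. E2F2 was at 8.18 with INTG, 9.43 with NC2 and 8.65 with NC1, and H2BC12 at 10.81 with INTG, 11.51 with NC2 and 12.40 with NC1, so INTG was below both controls for these 2 genes. Of the 66 probes, the INTG mean was above both controls for 34, between them for 27 and below both for 5. Those above both were 22 of the higher and 12 of the lower probes. The INTG mean lay nearer the NC2 mean for 34 of the 39 higher probes and nearer the NC1 mean for 21 of the 27 lower probes. Over all tested probes on the same side these shares were 55.0% and 49.8%. The arrays that chose the probes also set these distances, so the counts describe levels and were not tested.

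**Figure D4:**
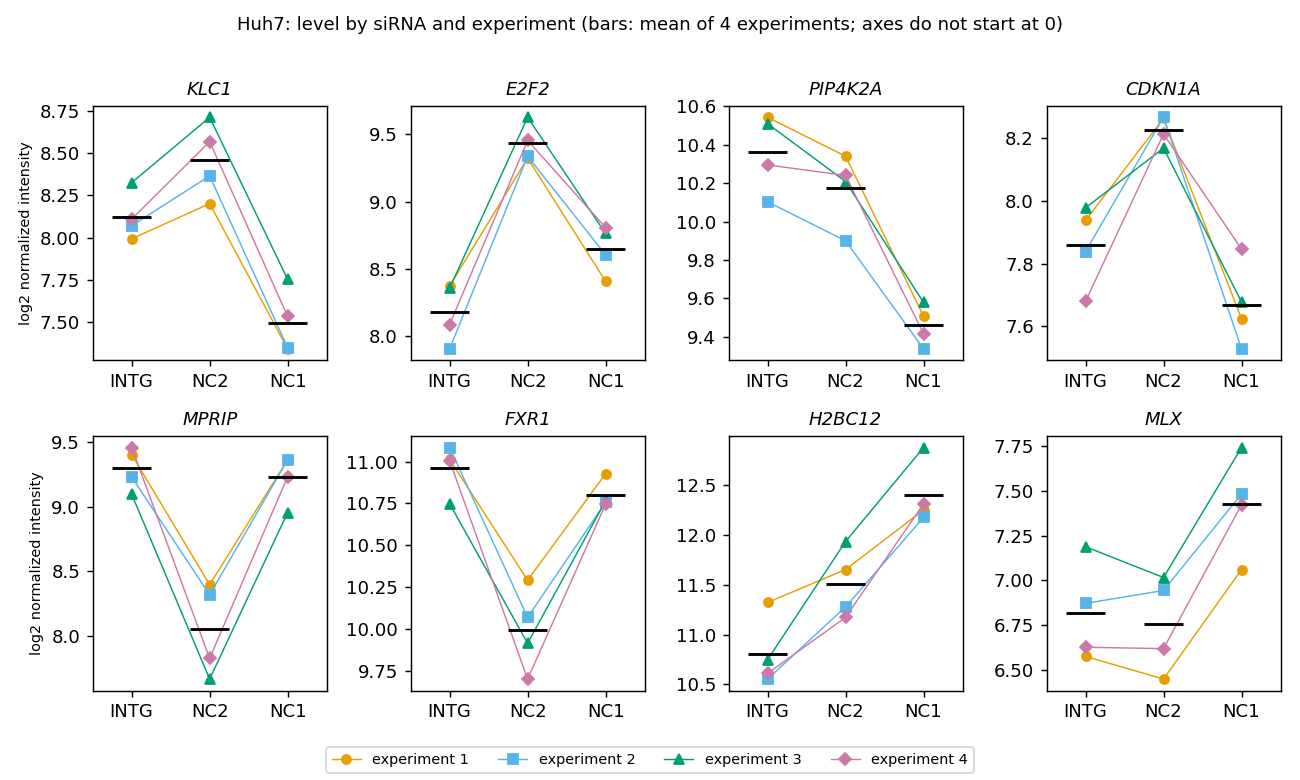
Level (log2 normalized intensity) of 8 genes in Huh7 with INTG, NC2 and NC1, 1 point per experiment with lines joining an experiment, and bars at the mean of 4 experiments. By the means, MPRIP and FXR1 are lowest with NC2, PIP4K2A is lowest with NC1, E2F2 and CDKN1A are highest with NC2, and H2BC12 is lowest with INTG.

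The experiments fall into a validation phase (experiments 3 and 4) and a discovery phase (experiments 1 and 2), each on its own slide, and an effect of the slide cannot be told apart from one of the phase. The lower probes had a median difference of -0.69 in experiment 3 and -0.83 in experiment 4, against -0.52 in experiment 1 and -0.54 in experiment 2. The higher probes were at 0.57 and 0.56 in experiments 3 and 4, against 0.52 and 0.53 in experiments 1 and 2. The 4 experiments that chose these probes also set their differences by phase. Of the 27 lower probes, 25 had a larger difference in validation, as had 21 of the 39 higher ones. MPRIP, for example, differed by -1.35 in validation and -1.01 in discovery (unadjusted p of the difference 0.0507), and HSPB1 by -0.87 in validation and -0.41 in discovery (unadjusted p 0.0267). No probe of 13878 differed between the phases at adjusted p 0.05 in limma, and 428 (3.08%) did at unadjusted p 0.05. The smallest p among named genes was that of the ubiquitin ligase TRIM15, with validation minus discovery at -0.75 ± 0.15 (adjusted p = 1.00), followed by VPS11 at 0.79 ± 0.16 and NUP62 at -0.86 ± 0.18.

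The lower probes had larger differences in experiments 3 and 4, and array brightness with NC2 was lower on average in those experiments. Whether the 2 are related was not tested. In experiment 3 the NC2 wells differed, with mean signals of 396 and 292, against 383 and 380 with NC1. With the mean array signal as a covariate, 14 probes passed, 6 higher and 8 lower. Under that covariate MPRIP was at -1.15 (adjusted p = 0.0222), KLC1 at 0.97 (adjusted p = 0.00563) and H2BC12 at -0.68 (adjusted p = 0.0706). E2F2, PIP4K2A, PDCD6 and CIRBP also passed among the higher genes, and SYPL1, VKORC1L1, DPH2, FXR1, YBX3, EIF5A2 and MLX among the lower ones.

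In THP1 no probe passed for the same controls. Of 13524 probes tested there, 0 passed adjusted p 0.05 in limma, and 237 (1.75%) passed unadjusted p 0.05. Of the 66 probes that passed in Huh7, 58 were tested in THP1, and 50 of these (86.2%) had the same sign in both lines, as had 55.7% of all 11542 probes tested in both. The THP1 arrays are separate from those of Huh7, but NC2 and NC1 held the same slide positions in both lines. An effect of position or order would be shared by the lines too, and cannot be told apart from the siRNA here. All of the 58 differences were smaller in THP1, for probes that were chosen by their Huh7 values. The median over the 32 higher probes was 0.54 in Huh7 and 0.13 in THP1, and over the 26 lower probes -0.65 in Huh7 and -0.16 in THP1. At an unadjusted p under 0.05, 14 of the 50 passed in THP1.

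CDKN1A was at 0.56 ± 0.09 in Huh7 and 0.48 ± 0.10 in THP1, the nearest to equal among the named genes tested in both lines. PIP4K2A was at 0.71 ± 0.08 in Huh7 and 0.27 ± 0.06 in THP1, and FXR1 at -0.81 ± 0.10 in Huh7 and -0.31 ± 0.07 in THP1. MPRIP was at -1.18 ± 0.11 in Huh7 and -0.27 ± 0.11 in THP1. KLC1 was at 0.97 ± 0.07 in Huh7, while its THP1 value of 0.13 ± 0.39 was too imprecise to place. Tested as a difference between the lines, 0 of 11542 probes passed adjusted p 0.05 in limma and 396 (3.43%) passed unadjusted p 0.05. The smallest adjusted p was 0.182, reached by PDCD6 (Huh7 minus THP1 0.51 ± 0.08), MPRIP (-0.91 ± 0.16), CIRBP (0.57 ± 0.10), YBX3 (-0.54 ± 0.10) and TGFBR3 (-0.51 ± 0.09). The line difference was thus not established for any probe, although the THP1 values were the smaller ones.

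**Figure D5:**
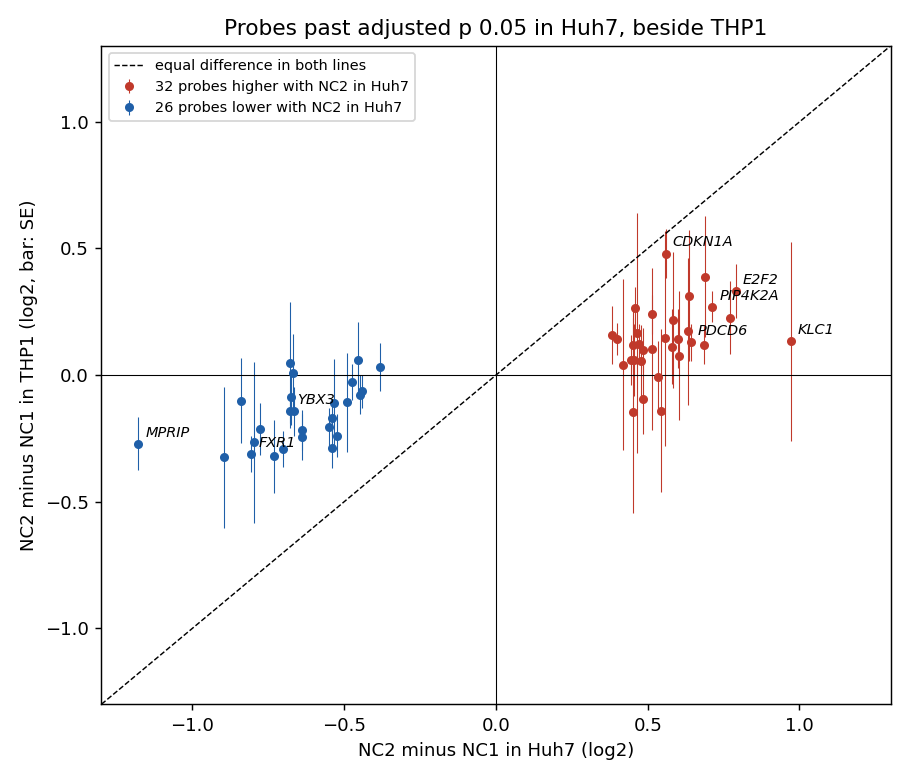
NC2 minus NC1 in THP1 (log2, bars show the SE) against NC2 minus NC1 in Huh7 (log2), for the 58 probes that passed in Huh7 and were tested in THP1. The points lie nearer 0 on the THP1 axis than the dashed line of equal difference, and CDKN1A comes closest to that line among the labelled genes.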

How the data were processed

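Per the file headers, the authors deposited, for each probe, an average bead intensity and a detection p-value, with no background correction or normalization visible in the values. Their own processed intensity, linear in scale, came in a separate table and served as an alternative. Lumi and limma are the tools in the submitters' processing notes, without versions. Of 48803 probes, 8 blank ones were left out, and 28098 carry 1 gene symbol in the platform annotation.

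Signals were background-corrected by normexp with detection p-values (offset 16), quantile normalized over 48 arrays and logged (log2) with neqc in limma 3.58.1 (R 4.3.3). Probes with detection p under 0.01 on at least 8 of a line's 24 arrays were tested. The 2 wells were averaged, and limma was fitted with siRNA and experiment as terms over 12 averaged Huh7 arrays. Adjusted p-values are Benjamini-Hochberg over all tested probes. Each experiment number stands for 1 culture passage in the series' design text, and deviations of same-numbered arrays from group means correlated at 0.843 to 0.888. For different experiments the correlation was 0.361 to 0.721 on the same slide and -0.801 to -0.603 across slides. The number of arrays limits the precision. Fits were tested on simulated data.

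The members and the gene lists were chosen with earlier results of these data known. Named were the 15 highest and 15 lowest genes past the threshold with 1 sign in 4 experiments (smallest p per gene), list members that passed, up to 3 members per list by the size of the moderated t (brightest probe), markers, and the leading genes of the line and phase differences. A list member counted as passed if any of its probes passed.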

Additional observations from a re-analysis of the deposited data

Results flagged for a closer look

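Of 59 sets of 4 experiments examined for a single value far from the others, 2 stood out, and chance gives about 1 in 20. PDCD6 had a difference of 0.736 in experiment 4, against 0.602 to 0.618 in the other 3 experiments. ACOX2 had a difference of -0.936 in experiment 4, against -0.621 to -0.566 in the others. Experiment 4 was also the one with the lowest array brightness with NC2 relative to NC1 (0.739 times), and whether the 2 are related was not tested.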

How the results depend on the processing

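The count of 66 probes for NC2 minus NC1 in Huh7 depended on the processing. The 56 named genes past the threshold passed in a median of 12 of 23 alternatives. None of them changed sign in any alternative run for them. All of the 66 probes had the same sign in the 4 experiments, so leaving experiments out could not reverse a sign. The experiments pair the samples, and with no replicate block 0 probes passed (266 at unadjusted p 0.05). With wells as separate arrays 405 passed, and 259 with the well pair as a random block; wells of 1 experiment are not independent cultures. Without background correction 187 passed, with cyclic loess 101, with array weights 237, with an intensity trend and robust variance 181, and with detection required on all 16 control arrays 145. With slide as the only block 12 passed, with brightness as a covariate 14, with well 1 alone 26 and with well 2 alone 11. The validation slide alone gave 0 (1162 at unadjusted p 0.05) and the discovery slide alone 0 (660), with 2 experiments each. With 1 experiment left out, between 3 and 12 passed. Normalization within each line (70), the authors' processed values (58), no detection filter (44) and the control arrays alone (49) stayed within 1.5 times; in the last, 41 of the 66 probes passed. For Huh7 minus THP1, 0 became 16 with separate wells, 12 with array weights, 1 with cyclic loess and 1 with no detection filter. The counts for THP1 and for validation minus discovery stayed at 0 in every alternative run for them. The probes of MET and DEFB1 were detected on only some of the NC1 arrays, which limits their values.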

Other observations

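Further genes past the threshold lie outside the 15 highest and 15 lowest, and were picked here after their values were seen. Among those higher with NC2 were 2 kinases of stress signalling, MAP3K20 at 0.45 ± 0.07 (adjusted p = 0.0143) and MAP2K4 at 0.42 ± 0.07 (adjusted p = 0.0318), which activates JNK. The DNA repair endonuclease ERCC5 was higher at 0.52 ± 0.07 (adjusted p = 0.0113), the Mediator kinase CDK19 at 0.48 ± 0.08 (adjusted p = 0.0214) and the Wnt cofactor PYGO2 at 0.54 ± 0.09 (adjusted p = 0.0219). Among those lower with NC2 were the membrane-bound transcription factor CREB3L2 at -0.48 ± 0.07 (adjusted p = 0.0192), the retromer subunit VPS26B at -0.52 ± 0.10 (adjusted p = 0.0496) and the chromatin protein NUCKS1 at -0.44 ± 0.08 (adjusted p = 0.0418). Values without a call were as large for some abundant transcripts. The non-coding RNA SNAR-A1 was at -0.90 ± 0.72 (adjusted p = 0.745), with the same sign in 3 of 4 experiments, and the histone deacetylase HDAC1 at -0.54 ± 0.11 (adjusted p = 0.0708), with the same sign in 4 of 4.

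In THP1, the 20 probes with the smallest unadjusted p for NC2 minus NC1 held 5 that had passed in Huh7, the first 100 held 10, and all 13524 tested held 58 (0.429%). The 5 were those of CDKN1A, PIP4K2A, FXR1, SYPL1 and FBXO33. None of the 20 passed the adjusted threshold in THP1, and NC2 and NC1 held the same slide positions in both lines. The smallest unadjusted p belonged to the chemotactic receptor GPR183, at 0.55 ± 0.11 (adjusted p = 1.00).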
